A study of Mus musculus with 4 samples.

Results

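The 41 genes described here carry out the duplication of DNA in S phase: they license origins, unwind the helix, copy both strands, join the fragments, make deoxynucleotides and rebuild chromatin behind the fork. They were chosen by symbol, with earlier results of these data known, from a deposited table of 17039 genes. All 41 were found, and all 41 were among the 12887 genes that passed the filter on low counts. RNA was sequenced from splenic T cells of C57BL/6 mice that had received, by the intramuscular route, either AAV-IL-27, an adeno-associated virus carrying the cytokine interleukin-27, or a control virus, AAV-ctrl. A month later T cells were taken by magnetic separation (MACS). Which cells the magnetic step kept, what AAV-ctrl carries, and the age of the mice were not given in the sources used here. Each group had 2 libraries, labelled replicates 1 and 3, from 4 mice in all. No other allele or agent is named, and all 4 mice carried a virus.

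DNA replication starts when the origin recognition complex, Cdc6 and Cdt1 load the MCM2-7 helicase on DNA in G1. In S phase the helicase is switched on by Cdc45 and the GINS complex, polymerase alpha-primase lays down primers, and polymerases delta and epsilon extend them on the PCNA clamp. Resting T cells keep this machinery low and build it up, together with ribonucleotide reductase and the thymidylate enzymes, when they enter division after activation. Many of these genes are transcribed under the control of E2F factors.

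CD8+ T cells are named in the title, whereas the cell type is given as T cells of the spleen. Cd8a, a chain of the CD8 co-receptor, stood at 408.1 and 349.2 FPKM in AAV-IL-27 replicates 1 and 3 and at 320.8 and 335 in AAV-ctrl replicates 1 and 3, while Cd4 stood at 8.21 to 10.1. FPKM here is the deposited value that corrects a count for gene length and depth. Transcripts of other cells were also present. The summed level of 16 neutrophil genes in CPM, which scales counts to library size, was 924.2 and 1530 in AAV-IL-27 against 27.15 and 17.79 in AAV-ctrl, and 15 of the 16 rose (median log2 fold change 5.79). The sum over 10 B cell genes was 2264 and 3122 against 4582 and 4095 CPM, with 4 of 10 lower, and that of 9 germinal centre and plasma cell genes was 462.4 and 1001 against 267.8 and 338.3, with 1 higher and 1 lower. All 7 natural killer genes fell. The sum of 6 blood progenitor genes was 160.5 and 117.5 against 94.98 and 100.6 CPM, with 1 of the 5 tested higher. That of 14 erythroid genes overlapped between the groups (32.47 and 52.09 against 67.45 and 40.15). Of 10 monocyte and macrophage genes 5 fell and 1 rose, and their sum overlapped as well (247.3 and 334.2 against 349.9 and 279.9). No tested or untested gene of these lists was at 0 in every library of a group. The sum of the 17 T cell genes ranged from 5869 to 6635 CPM, and 8 of them rose and 3 fell. Beside these counts, 21.3% of all genes tested rose and 17.7% fell, shares that some of the lists above come near. Neutrophil precursors, blood progenitors and germinal centre B cells also divide. In bulk RNA, a change in the number of cells of a type and a change in RNA per cell cannot be told apart.

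Between the AAV-IL-27 libraries, replicate 3 held 1.66 times the neutrophil sum and 2.16 times the germinal centre and plasma cell sum of replicate 1. Genes of the latter list went both ways, with log2 ratios of replicate 3 to replicate 1 of 1.28 for Jchain and -0.46 for Gcsam. The blood progenitor sum was lower in replicate 3 (117.5 against 160.5 CPM). The summed level of the 41 replication genes was 1.02 times that of replicate 1. These ratios compare 2 libraries only. The part of other cell types in the results below was not tested.

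The replication genes took a larger share of the RNA in AAV-IL-27. They held 0.275% of all counts in replicate 1 (95% Wilson interval 0.272 to 0.277) and 0.279% in replicate 3 (0.277 to 0.282), against 0.172% (0.170 to 0.174) and 0.169% (0.167 to 0.171) in AAV-ctrl. These intervals cover counting error only. Of the 41 genes, 35 rose, none fell and 6 did not pass (edgeR quasi-likelihood test, adjusted over all 12887 genes, threshold 0.05). Of all genes tested, 21.3% rose and 17.7% fell. By edgeR, 0 members were lower at an unadjusted p under 0.05, and 0 were lower by DESeq2. The median log2 fold change of the members was 0.85, a 1.8-fold rise, and that of all genes was -0.01. No set test was made, so the counts and medians describe the list.

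In 39 of the 41 genes both AAV-IL-27 libraries lay above both AAV-ctrl libraries in normalized counts, an order found in 35.7% of all genes. The exceptions were Pold1, with both AAV-IL-27 libraries below, and Rfc1, whose groups overlapped in normalized counts and whose AAV-IL-27 libraries both lay below in FPKM. A total of 17 members rose 2-fold or more, against 5.25% of all genes. A test against a fold of 1.5 (edgeR glmTreat) was passed by 25 members, against 5.04% of all genes. That number fell to 16 when either AAV-ctrl library was left out, and Mcm2, Mcm3, Mcm4, Mcm7, Gins1, Gins2, Pcna and Fen1 left it under both. Dut left it without AAV-ctrl replicate 1, and Rpa2 without AAV-ctrl replicate 3.

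The scaling of the libraries bears on these counts. In the whole table, 54.6% of the changed genes were higher with TMM factors, 44.2% with upper-quartile factors, 44.3% with library size alone and 36.7% when libraries were scaled to the T cell genes. Scaling to the T cell genes moved the median of all genes to -0.13. Relative to that, the members' median was 0.85, a difference that a change of scaling leaves nearly as it is by construction. Under this scaling 31 members rose, and the 4 that no longer passed were Pola2, Rfc2, Rpa1 and Tyms. Their estimates were smaller and their standard errors larger. Pola2 went from 0.37 to 0.26 with a standard error of 0.065 and then 0.126. Rpa1 went from 0.26 to 0.14 with a standard error of 0.046 and then 0.115. The test against 1.5-fold was then passed by 17 members, without Mcm2, Mcm3, Mcm4, Mcm7, Pcna, Rpa2, Fen1 and Dut. With upper-quartile factors or library size alone 35 members rose and 22 passed the test against 1.5-fold, without Mcm2, Mcm3 and Mcm7.

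**Figure D1:**
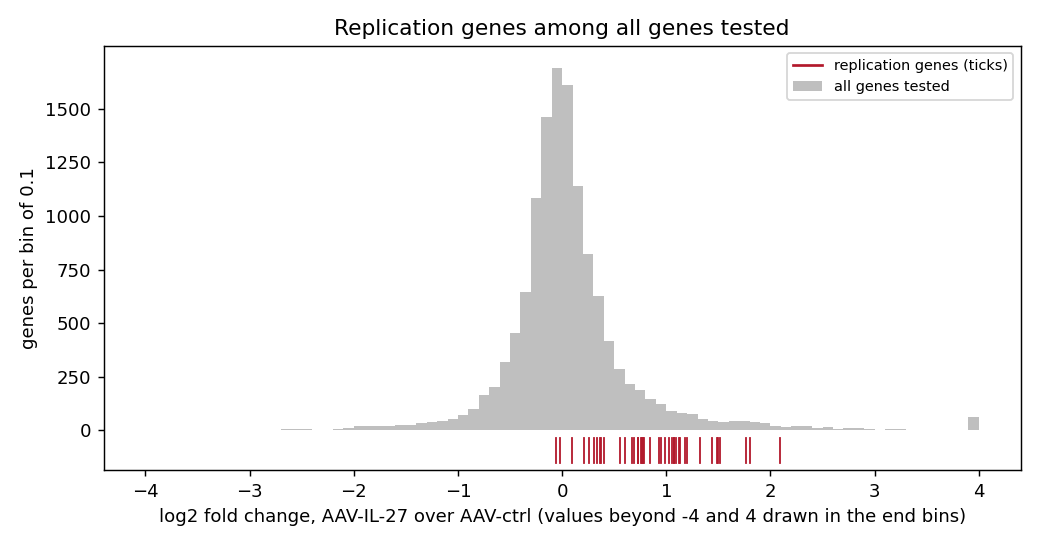
Log2 fold change (AAV-IL-27 over AAV-ctrl) of all 12887 tested genes as a histogram, with the 41 replication genes marked. The members lie between -0.06 and 2.09, and their median of 0.85 is to the right of that of all genes, -0.01.

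**Figure D2:**
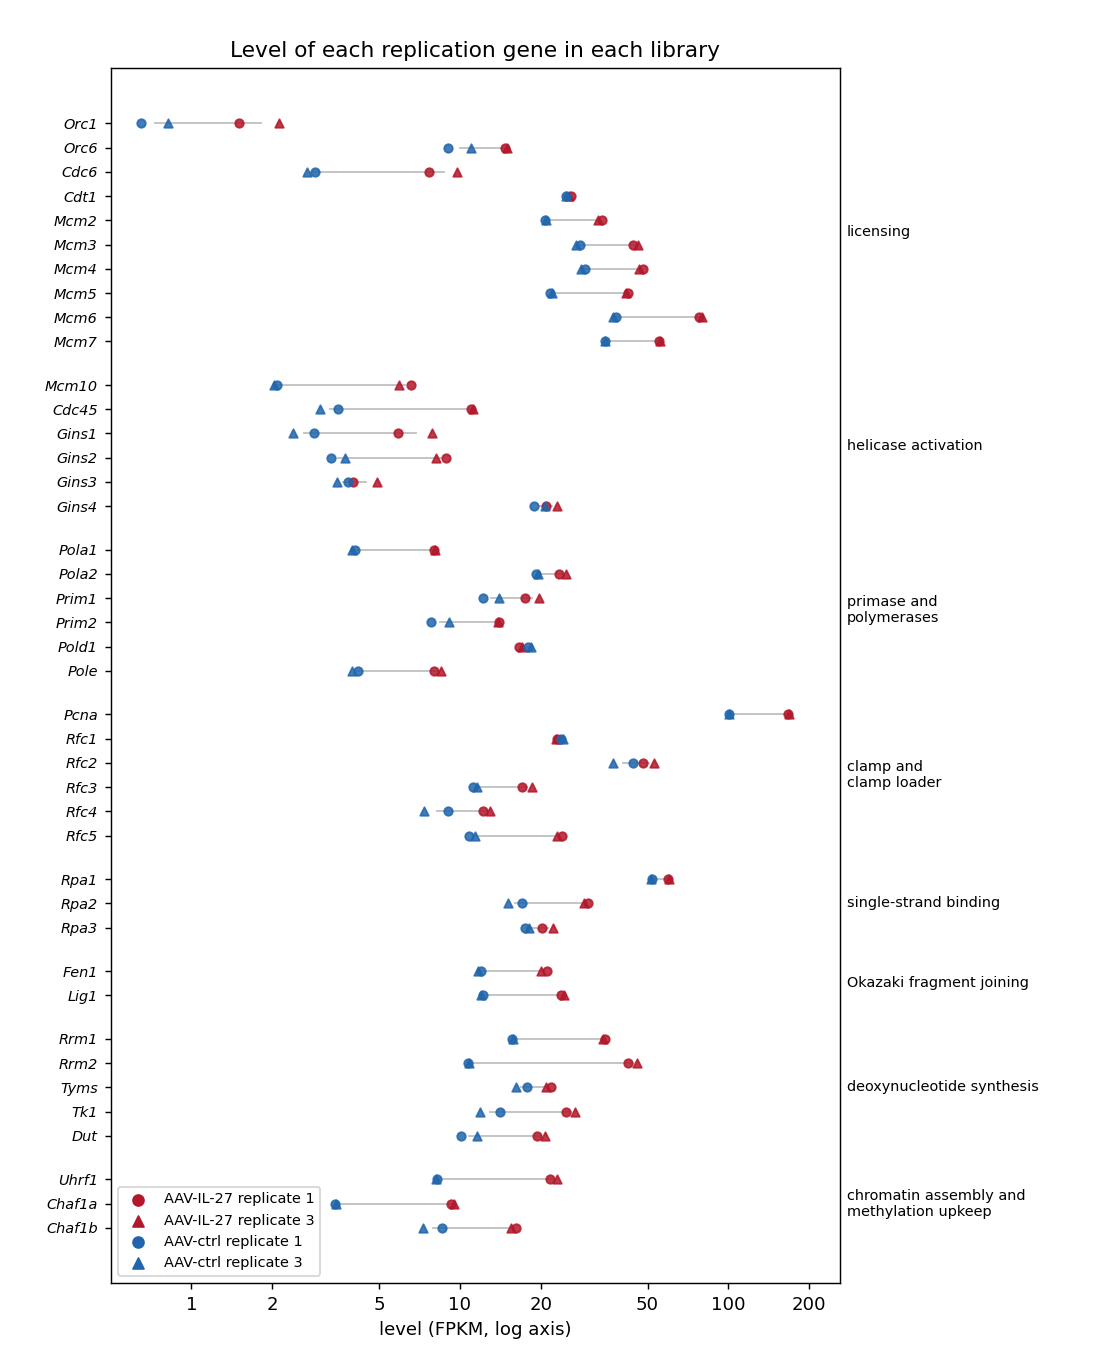
FPKM of each member in each of the 4 libraries on a log axis, grouped by step. In 39 of 41 rows both AAV-IL-27 points lie to the right of both AAV-ctrl points.

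Licensing, the loading of the helicase on DNA, was represented by 10 genes, of which 9 rose, 7 of them by more than 1.5-fold as tested (median log2 fold change 0.76). Cdc6, the ATPase that recruits the helicase to origins, stood at 7.68 and 9.72 FPKM in AAV-IL-27 replicates 1 and 3 and at 2.89 and 2.70 in AAV-ctrl. It had the largest rise of the step (log2 fold change 1.77 ± 0.14 (SE), adjusted p = 1.39e-05). Its partner Cdt1 is held in check by geminin outside G1. Cdt1 was nearly level, at 25.99 and 25.48 FPKM against 24.9 in each AAV-ctrl library (0.10 ± 0.06, adjusted p = 0.241), and its estimate was below 0, at -0.03, when libraries were scaled to the T cell genes. The ratio of Cdt1 to Cdc6 in FPKM was therefore 3.38 and 2.62 in AAV-IL-27 and 8.63 and 9.24 in AAV-ctrl.

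Orc1 is the origin recognition subunit whose amount varies most over the cell cycle in mammals. It was the least abundant member, with 1.5 and 2.12 FPKM in AAV-IL-27 and 0.65 and 0.82 in AAV-ctrl, which came from 76, 115, 39 and 45 expected counts. It rose by 1.2 ± 0.25 (adjusted p = 0.00514), but not without AAV-ctrl replicate 1 (adjusted p = 0.0674). Orc6, the smallest subunit, was at 14.7 and 14.9 FPKM against 9.07 and 11.03 (0.60 ± 0.11, adjusted p = 0.00201). The other subunits bind origins together with them. Orc2 (0.16, adjusted p = 0.0749), Orc3 (-0.06, adjusted p = 0.375) and Orc4 (-0.07, adjusted p = 0.365) did not pass. Orc5 fell by 0.22 ± 0.07 (adjusted p = 0.0352), a call that was lost whichever of the 4 libraries was left out (adjusted p 0.0678 to 0.179) and by DESeq2 (adjusted p = 0.276).

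The 6 subunits of the MCM2-7 ring, the motor that unwinds DNA, all rose by more than 1.5-fold as tested, within a narrow range of log2 fold changes from 0.72 to 1.07. Mcm6 (NCBI Gene 17219, GRCm38.p6 chromosome 1, 128331575 to 128359705) was the most abundant in every library, at 77.8 and 79.5 FPKM in AAV-IL-27 and 38.2 and 37.2 in AAV-ctrl. It also rose most (1.07 ± 0.05, adjusted p = 5.54e-07). Mcm5 went from 21.6 and 22.1 FPKM in AAV-ctrl to 42.4 and 41.4 (0.98 ± 0.05, adjusted p = 1.35e-06). Both lay close to a doubling, above the other 4 subunits.

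Mcm7 was at 55.0 and 55.8 FPKM against 34.8 and 34.7 in AAV-ctrl (0.73 ± 0.05, adjusted p = 5.85e-06). Mcm4 was at 48.0 and 46.6 against 29.3 and 28.3 (0.77 ± 0.05, adjusted p = 4.33e-06). Mcm3 was at 44.2 and 46.1 against 28.1 and 27.1 (0.76 ± 0.05, adjusted p = 6.38e-06). Mcm2, the lowest subunit in every library, was at 33.8 and 32.7 against 20.7 and 21.0 (0.72 ± 0.05, adjusted p = 8.65e-06). The order of the 6 levels was the same in all 4 libraries: Mcm6, Mcm7, Mcm4, Mcm3, Mcm5, Mcm2. The gap between Mcm4 and Mcm3 in AAV-IL-27 replicate 3 was smaller than the spread of either gene between the AAV-IL-27 libraries. Their summed level was 301.2 and 302.2 FPKM against 172.7 and 170.4. The related helicases Mcm8 and Mcm9, which act in recombination and repair, are no part of the ring. Mcm8 rose by 0.42 ± 0.13 (adjusted p = 0.0329), a call lost without each of the 4 libraries in turn (adjusted p 0.0517 to 0.173), by DESeq2 (0.228), by limma (0.0664) and with the other scalings (0.0512 to 0.238). Mcm9 had a log2 fold change of -0.14 (adjusted p = 0.17).

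RefSeq promoter windows of GRCm38.p6, from 250 bases before to 50 bases after the start, were at hand for 34 of the 41 members. They were searched on both strands for the E2F letters TTTCCCGC, TTTCGCGC, TTTGCCGC and TTTGGCGC, with overlapping matches counted separately. At least 1 match was found in 13 of the 34 member genes (38.2%), against 704 of 27025 genes in the table (2.6%) and 477 of the 10278 tested genes that have a window (4.64%). The 13 were Cdc6, Cdt1, Gins3, Lig1, Mcm3, Mcm5, Mcm6, Mcm7, Orc1, Pola1, Pold1, Rfc3 and Uhrf1. Their median log2 fold change was 0.98, and that of the other 21 was 0.85. Among the members that did not pass, Cdt1, Gins3 and Pold1 hold the letters, and 2 others with a window do not. Most of the 34 rose, so they say little on whether the letters go with a rise. Of the tested genes with a window, members included, 30.2% of those with the letters rose and 20.9% of those without. This difference was not tested. The CCAAT letters of NF-Y, also read on both strands, were found in 22 of 34 members (64.7%), in 41.1% of all genes in the table and in 43.2% of the tested genes with a window. TTTGAA, the letters of the CHR element of genes of later cell cycle phases, were found in 4 of 34 (11.8%), in 20.2% of all genes in the table and in 14.9% of the tested genes with a window. Mcm5 and Mcm6 had the largest rises among the subunits of the helicase ring. Mcm10, which is outside the ring, rose more (log2 fold change 1.52), and its window holds no E2F match. The stretches before the starts of Mcm5 (chr8:75109329-75109428, plus strand) and Mcm6 (chr1:128359706-128359825, minus strand) are shown because E2F letters overlap there on both strands. Capitals mark the E2F matches.
Mcm5: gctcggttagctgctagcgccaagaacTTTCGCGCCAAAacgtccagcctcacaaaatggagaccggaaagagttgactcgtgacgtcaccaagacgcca
Mcm6: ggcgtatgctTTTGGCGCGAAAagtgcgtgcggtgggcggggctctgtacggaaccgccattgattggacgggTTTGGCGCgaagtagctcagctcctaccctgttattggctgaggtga
In Mcm5, 2 matches begin 153 and 149 bases before the start, and in Mcm6, 3 begin 110, 106 and 47 bases before it. The start was found in a GENCODE transcript of the gene for 31 of 39 member windows, but not for those of Mcm5 and Mcm6. Their distances therefore hold for the RefSeq start only. A match is a run of letters and was not tested for binding.

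Of the 6 genes of helicase activation, 4 rose, each by more than 1.5-fold as tested, and the median log2 fold change of the step was 1.38. Cdc45 (NCBI Gene 12544, chromosome 16, 18780447 to 18811972), which joins MCM2-7 and GINS in the active helicase, stood at 10.99 and 11.15 FPKM in AAV-IL-27 and at 3.53 and 3.02 in AAV-ctrl. Its rise was the second largest of the 41 (1.8 ± 0.12, adjusted p = 5.29e-06). Mcm10, which binds the helicase as it fires, was at 6.57 and 5.92 FPKM against 2.09 and 2.04 (1.52 ± 0.15, adjusted p = 7.71e-05).

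The 4 GINS subunits form 1 complex, and their estimates were uneven, which was not tested as a difference. Gins1 stood at 5.88 and 7.85 FPKM against 2.86 and 2.40 in AAV-ctrl (1.44 ± 0.22, adjusted p = 9.53e-04). Gins2 stood at 8.87 and 8.12 FPKM against 3.30 and 3.72 (1.32 ± 0.18, adjusted p = 4.26e-04). Gse1 covers 67.3% of its exonic bases from the opposite strand. Whether the counting used strand was not given in the sources used here, so reads of this pair may not be told apart; Gse1 itself fell (-0.16 ± 0.05, adjusted p = 0.0309).

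The remaining GINS subunits did not pass. Gins3 was at 4.01 and 4.93 FPKM against 3.82 and 3.50 (0.34 ± 0.15, adjusted p = 0.103), and passed when AAV-IL-27 replicate 1 was left out (adjusted p = 0.034). Gins4 was the most abundant subunit, at 21.0 and 23.1 FPKM against 18.8 and 20.7 (0.21 ± 0.09, adjusted p = 0.0898). The highest subunit exceeded the lowest by 5.24 and 4.69 times in AAV-IL-27, and by 6.58 and 8.64 times in AAV-ctrl. The lowest was Gins3 in both AAV-IL-27 libraries and Gins1 in both AAV-ctrl libraries.

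**Figure D3:**
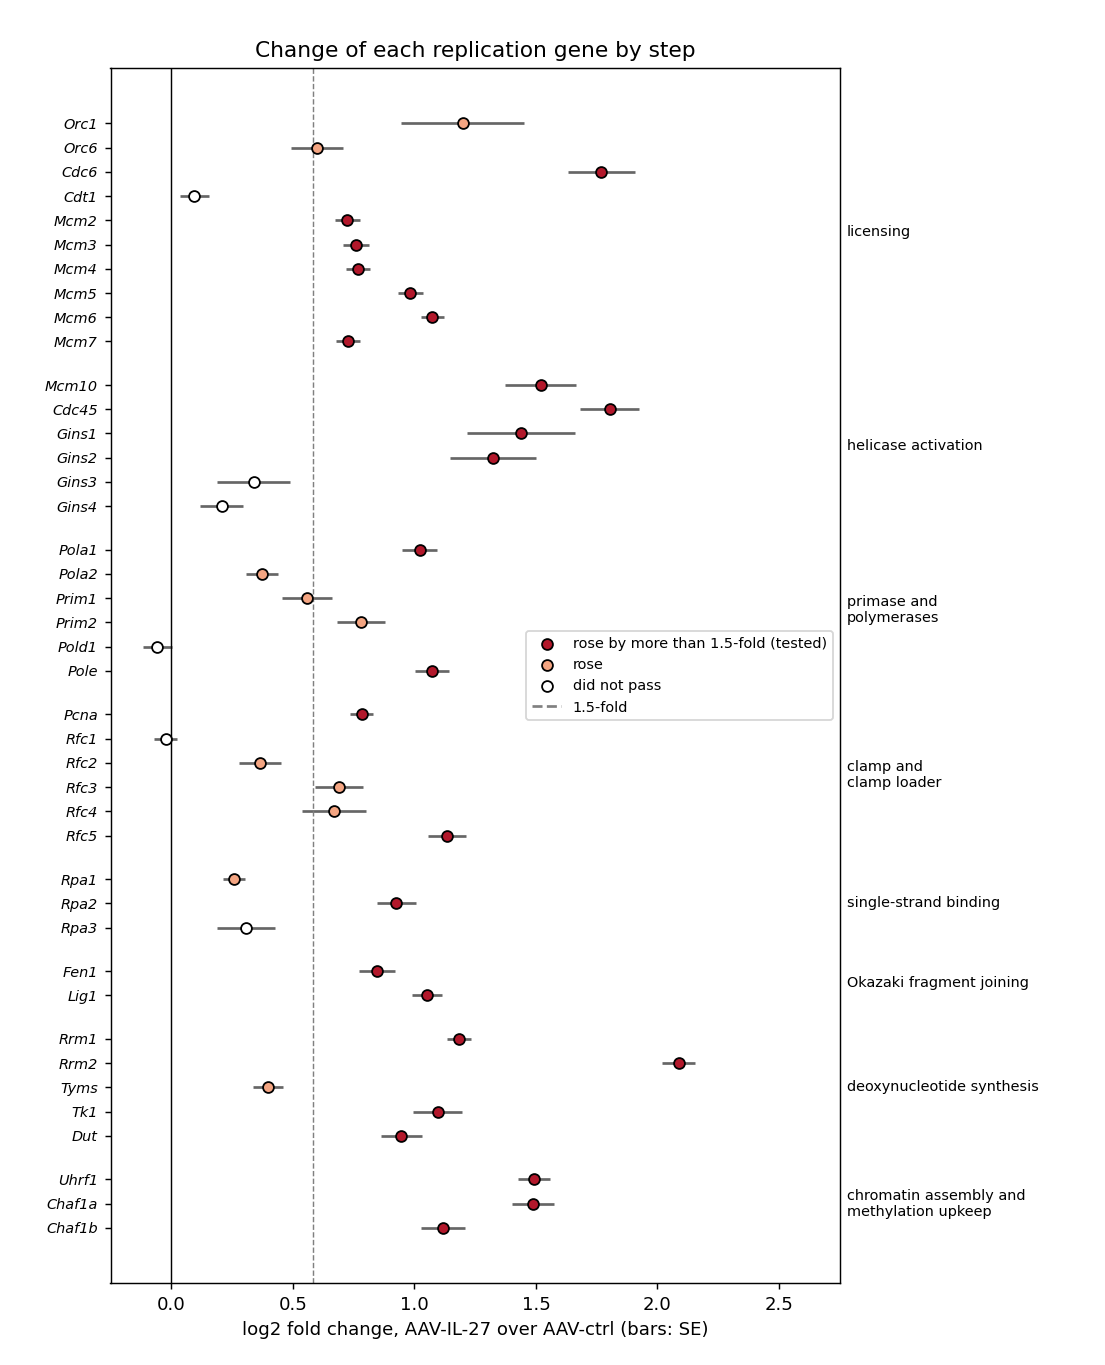
Log2 fold change of each member (points) with its SE (bars), by step, where filled red points passed the test against 1.5-fold, orange points rose, and open points did not pass. Rrm2 has the largest value, 2.09, and Pold1 and Rfc1 lie just below 0.

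Among the primase and polymerase genes 5 of 6 rose, and 2 rose by more than 1.5-fold as tested (median log2 fold change 0.67). Pola1, the catalytic subunit of polymerase alpha, rose from 4.07 and 3.98 FPKM in AAV-ctrl to 7.99 and 8.09 (1.02 ± 0.07, adjusted p = 8.20e-06). Pola2, its accessory subunit, was at 23.4 and 24.9 FPKM against 19.3 and 19.5 (0.37 ± 0.06, adjusted p = 0.00183, and 0.106 when scaled to the T cell genes). Pola2 exceeded Pola1 by 2.93 and 3.08 times in AAV-IL-27 against 4.73 and 4.89 times in AAV-ctrl. The primase subunits, which make the RNA primer, lay between them. Prim1 was at 17.5 and 19.8 FPKM against 12.2 and 14.0 (0.56 ± 0.10, adjusted p = 0.00227). Prim2 was at 14.0 and 13.9 FPKM against 7.79 and 9.13 (0.78 ± 0.10, adjusted p = 2.98e-04).

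The catalytic subunits of the leading and lagging strand polymerases had unlike values, a difference between genes that was not tested. Pole, of polymerase epsilon, rose from 4.17 and 3.96 FPKM to 7.98 and 8.54 (1.07 ± 0.07, adjusted p = 5.03e-06). Pold1 (NCBI Gene 18971, chromosome 7, 44532744 to 44548815), of polymerase delta, stood at 16.6 and 17.1 FPKM in AAV-IL-27 and at 17.9 and 18.3 in AAV-ctrl. Both AAV-IL-27 libraries lay below both AAV-ctrl libraries, and the difference did not pass (-0.06 ± 0.06, adjusted p = 0.483). Pold1 thus exceeded Pole by 2.08 and 2.00 times in AAV-IL-27 and by 4.30 and 4.63 times in AAV-ctrl. The accessory subunits had estimates below that of Pole. Pold2 (0.36 ± 0.07, adjusted p = 0.00482), Pold3 (0.27 ± 0.07, adjusted p = 0.0128) and Pole2 (0.41 ± 0.09, adjusted p = 0.00665) rose, but none of these calls held when libraries were scaled to the T cell genes (adjusted p = 0.163, 0.363 and 0.131). Each was also lost without AAV-ctrl replicate 3 (adjusted p = 0.057, 0.0976 and 0.0668). Without AAV-ctrl replicate 1, Pold3 (0.0886) and Pole2 (0.0586) did not pass, and without AAV-IL-27 replicate 3 Pold3 did not (0.0538). By DESeq2, Pold3 (0.0707) and Pole2 (0.082) did not pass. Pold4 (-0.13, adjusted p = 0.0834), Pole3 (0.13, adjusted p = 0.463) and Pole4 (0.02, adjusted p = 0.872) did not pass, and Pole4 was below 0 with every other scaling and with limma (-0.035 to -0.105). Pold4 passed as lower with library size alone (adjusted p = 0.0246), upper-quartile factors (0.025) and limma (0.0324).

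PCNA, the ring that tethers polymerases to DNA, was the most abundant member. Pcna (NCBI Gene 18538, chromosome 2, 132249286 to 132253180) stood at 166.8 and 167.7 FPKM in AAV-IL-27 and at 100.7 and 100.5 in AAV-ctrl (0.78 ± 0.05, adjusted p = 2.49e-06). Its 2 libraries in each group lay within 1 FPKM of each other. The clamp loader that opens the ring, RFC, had 4 of its 5 genes higher.

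Rfc5 rose most, from 10.8 and 11.4 FPKM in AAV-ctrl to 24.0 and 23.0 (1.13 ± 0.08, adjusted p = 6.19e-06). It was the clamp loader gene that passed the test against 1.5-fold. Rfc3 was at 17.0 and 18.5 FPKM against 11.2 and 11.5 (0.69 ± 0.10, adjusted p = 6.11e-04). Rfc4 was at 12.17 and 12.97 FPKM against 9.03 and 7.35 (0.67 ± 0.13, adjusted p = 0.00373, and 0.0566 without AAV-ctrl replicate 3). Rfc2 was at 48.2 and 52.8 FPKM against 44.0 and 37.1 (0.37 ± 0.09, adjusted p = 0.0118, 0.0907 without AAV-ctrl replicate 3, and 0.103 when scaled to the T cell genes). Rfc2 and Rfc4 share 15.1% and 12.7% of their exonic bases with Lat2 and Eif4a2 on the other strand, which both fell (-0.26 and -0.36). Rfc5 shares 10.7% with Wsb2 and Orc1 shares 10.8% with Gm12743, also on the other strand. Values of these partners are not given here. Rfc1, the large subunit, was at 22.9 and 22.7 FPKM against 23.8 and 24.3. Its AAV-IL-27 libraries were both lower in FPKM, but in normalized counts the groups overlapped, and the difference did not pass (-0.02 ± 0.05, adjusted p = 0.737). Rfc1 therefore exceeded Rfc5 by 2.2 and 2.13 times in AAV-ctrl and lay slightly below it in AAV-IL-27, at 0.956 and 0.987 times.

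RPA, the trimer that coats single-stranded DNA, showed the smallest median change of the 8 steps (0.31), and 2 of its 3 genes rose. Rpa2, the subunit phosphorylated in the cell cycle and on damage, was at 30.0 and 28.9 FPKM against 17.1 and 15.1 (0.93 ± 0.08, adjusted p = 2.50e-05). Rpa1, the large subunit and most abundant of the 3, was at 59.5 and 60.0 FPKM against 52.0 and 51.5 (0.26 ± 0.05, adjusted p = 0.00221, and 0.37 when scaled to the T cell genes). Rpa3 was at 20.3 and 22.2 FPKM against 17.5 and 18.1 and did not pass (0.31 ± 0.12, adjusted p = 0.0699), though it did with limma on log2(FPKM + 1) (adjusted p = 0.0315). Rpa1 exceeded Rpa2 by 1.98 and 2.07 times in AAV-IL-27 and by 3.05 and 3.42 times in AAV-ctrl.

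Both genes of Okazaki fragment joining rose. Lig1, the ligase that seals the nicks, rose from 12.2 and 11.9 FPKM to 23.8 and 24.5 (1.05 ± 0.06, adjusted p = 2.32e-06). Fen1, the nuclease that trims the displaced flap, went from 12.03 and 11.67 FPKM to 21.12 and 19.99 (0.85 ± 0.07, adjusted p = 2.76e-05). Gm10143 covers 78.8% of the exonic bases of Fen1 from the opposite strand, so the same doubt on strand holds for Fen1. Tmem258 covers 5.37% of them, also from the opposite strand. Its estimate was above 0 and did not pass (0.25 ± 0.09, adjusted p = 0.0543).

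All 5 deoxynucleotide genes rose, 4 of them by more than 1.5-fold as tested (median log2 fold change 1.10). The largest change of all 41 genes was that of Rrm2 (NCBI Gene 20135, chromosome 12, 24708254 to 24714146), the small subunit of ribonucleotide reductase that is made in S phase. It stood at 42.5 and 45.7 FPKM in AAV-IL-27 and at 10.7 and 10.8 in AAV-ctrl (2.09 ± 0.07, adjusted p = 9.61e-08). Rrm1, the large subunit, was at 34.8 and 34.2 FPKM against 15.7 and 15.8 (1.18 ± 0.05, adjusted p = 3.81e-07). Rrm1 exceeded Rrm2 in AAV-ctrl, by 1.47 and 1.46 times, and lay below it in AAV-IL-27, at 0.819 and 0.748 times. The paralog Rrm2b, the p53-inducible small subunit used outside S phase, fell from 16.4 and 14.8 FPKM to 12.41 and 11.03 (-0.37 ± 0.08, adjusted p = 0.00439, and 0.0658 without AAV-ctrl replicate 1). Rrm2 was below Rrm2b in both AAV-ctrl libraries, at 0.653 and 0.729 times, and above it in both AAV-IL-27 libraries, at 3.42 and 4.14 times.

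The RefSeq window of Rrm2 holds no E2F match, and the stretch of it before the start (chr12:24708104-24708240, plus strand) is shown for contrast with Mcm5 and Mcm6, since the gene with the largest rise lacks these letters there.
Rrm2: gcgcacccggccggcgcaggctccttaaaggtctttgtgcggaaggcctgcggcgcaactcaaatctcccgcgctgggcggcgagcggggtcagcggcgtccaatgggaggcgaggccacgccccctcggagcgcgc
This says only that these letters are not in this window.

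The thymidylate enzymes rose by different amounts. Tk1, the S phase thymidine kinase of the salvage route, was at 24.9 and 26.9 FPKM against 14.1 and 11.9 (1.10 ± 0.10, adjusted p = 4.30e-05). Its mitochondrial relative Tk2 fell (-0.39 ± 0.06, adjusted p = 6.07e-04), and the ratio of Tk1 to Tk2 was 0.817 and 0.937 in AAV-IL-27 against 0.350 and 0.298 in AAV-ctrl. Dut, which removes dUTP and yields the precursor of dTMP, was at 19.4 and 20.8 FPKM against 10.1 and 11.6 (0.95 ± 0.08, adjusted p = 3.39e-05). Tyms, which makes dTMP, was at 21.9 and 20.9 FPKM against 17.7 and 16.1 (0.40 ± 0.06, adjusted p = 0.00103, and 0.0619 when scaled to the T cell genes).

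**Figure D4:**
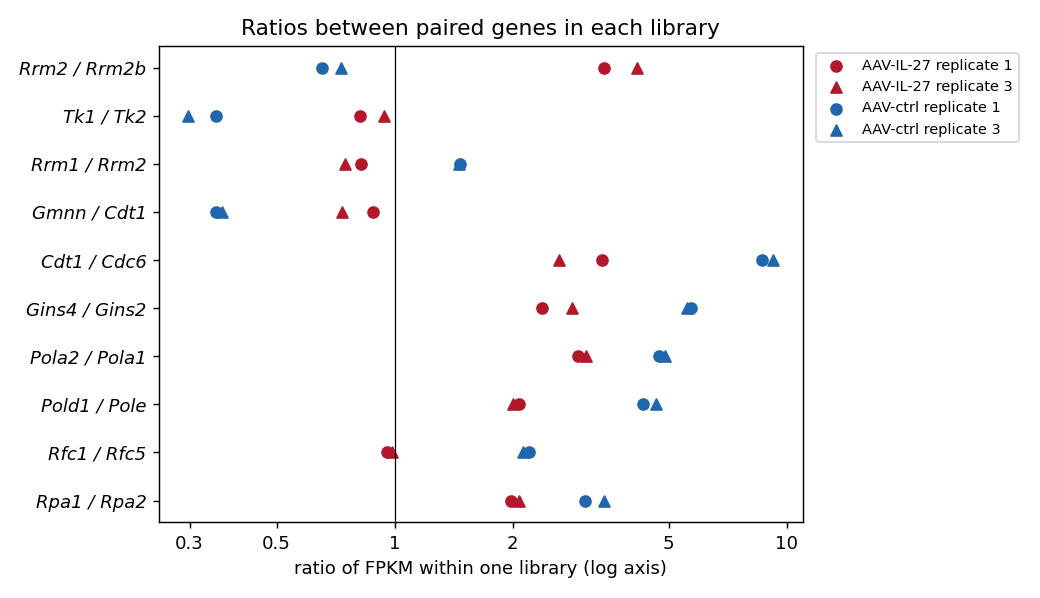
Ratio of the FPKM of paired genes in each of the 4 libraries, on a log axis. Rrm2 over Rrm2b and Rrm1 over Rrm2 lie on opposite sides of 1 in the 2 groups, and Gins4 over Gins2 is 5.71 and 5.58 in AAV-ctrl and 2.37 and 2.84 in AAV-IL-27.

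The pairs in these ratios were chosen after their values were seen and carry no test. Across the 41 genes, those with higher mean FPKM tended to smaller log2 fold changes (Spearman rho = -0.39 across genes, which share the same 4 libraries, given as a description).

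The 3 genes that restore chromatin and DNA methylation behind the fork all rose by more than 1.5-fold as tested, and their median log2 fold change, 1.49, was the highest of the 8 steps. Uhrf1, which reads hemimethylated DNA and recruits Dnmt1, was at 21.7 and 23.0 FPKM against 8.21 and 8.14 (1.49 ± 0.07, adjusted p = 4.42e-07). Chaf1a, the large subunit of the histone chaperone CAF-1, was at 9.23 and 9.52 FPKM against 3.44 and 3.47 (1.49 ± 0.09, adjusted p = 2.22e-06). Chaf1b, its partner, was at 16.2 and 15.4 FPKM against 8.59 and 7.32 (1.12 ± 0.09, adjusted p = 1.79e-05). Ubxn6 covers 52.5% of the exonic bases of Chaf1a from the other strand, and did not pass itself (-0.10, adjusted p = 0.276).

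Replicates differed little beside these changes. Replicate 3 was above replicate 1 in 27 of 41 genes in AAV-IL-27 and in 20 of 41 in AAV-ctrl, with median log2 ratios of 0.04 and -0.00. These medians keep the sign, so opposite differences cancel. The largest differences between replicates were those of Orc1 in AAV-IL-27 (0.54) and Mcm10 in AAV-ctrl (0.38 in size).

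Another 92 genes of replication, nucleotide supply and its transcriptional control were followed in 6 lists. Of these, 53 rose, 10 fell and 29 did not pass, with a median log2 fold change of 0.25. Among all 12887 genes tested, 21.3% rose and 17.7% fell. In the lists of licensing control, deoxynucleotide supply and ring synthesis, the share that fell was near that of all genes. With libraries scaled to the T cell genes, 31 rose. The list of E2F and pocket proteins, the activators and repressors of replication genes, had 9 of 13 higher and 2 lower. E2f7, an atypical repressor, stood at 1.84 and 2.25 FPKM against 0.41 and 0.44 (2.30 ± 0.19, adjusted p = 1.93e-05). E2f8, its relative (1.87 ± 0.10, adjusted p = 1.43e-06), and the activator E2f2 (1.36 ± 0.09, adjusted p = 1.30e-05) followed, while E2f5, a partner of the pocket proteins, fell (-0.49 ± 0.09, adjusted p = 0.00287). Tfdp2, a dimer partner of E2F, fell as well (-0.27 ± 0.08, adjusted p = 0.0294), a call lost whichever of the 4 libraries was left out (adjusted p 0.0516 to 0.234), by DESeq2 (0.209) and by limma (0.078).

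Origin firing and fork factors had 8 of 11 higher and 0 lower, and 0 of the 11 were lower at an unadjusted p under 0.05. Clspn, the checkpoint mediator at forks (1.83 ± 0.08, adjusted p = 4.42e-07), Ticrr, which brings Cdc45 to origins (1.74 ± 0.11, adjusted p = 2.83e-06), and the helicase Recql4 (1.28 ± 0.18, adjusted p = 5.28e-04) rose most. Other polymerase and fork enzymes had 13 of 23 higher, 0 lower and 10 not passed, and 1 of the 23 was lower at an unadjusted p under 0.05. Top2a, the topoisomerase of dividing cells (2.05 ± 0.06, adjusted p = 3.31e-08), the histone chaperone Asf1b (1.37 ± 0.10, adjusted p = 9.99e-06) and Dscc1, of an alternative clamp loader (1.14 ± 0.21, adjusted p = 0.00223), led them.

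Of 11 other genes of origin recognition and licensing control, 4 rose and 2 fell. Dtl, which directs the destruction of Cdt1 in S phase (1.56 ± 0.09, adjusted p = 2.47e-06), and Gmnn, the inhibitor of Cdt1 (1.28 ± 0.13, adjusted p = 8.50e-05), rose beside a Cdt1 that did not pass. In FPKM the ratio of Gmnn to Cdt1 was 0.881 and 0.732 in AAV-IL-27 and 0.350 and 0.362 in AAV-ctrl. Fbxo5, an inhibitor of the anaphase promoting complex, rose by 0.51 ± 0.08 (adjusted p = 9.05e-04). Kat7, a histone acetylase at origins, fell (-0.18 ± 0.05, adjusted p = 0.019), but not with AAV-ctrl replicate 1 (0.171) or 3 (0.0795) left out or by DESeq2 (0.116).

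Deoxynucleotide and thymidylate supply beyond the 5 members had 9 of 16 higher and 3 lower. Mthfd2, of mitochondrial folate metabolism, was among those that rose most (1.08 ± 0.07, adjusted p = 6.29e-06). Samhd1, which breaks down deoxynucleotides and is also induced by interferon, rose as well, from 162.8 and 161.2 FPKM to 285 and 293.6 (0.88 ± 0.04, adjusted p = 1.01e-06). The salvage kinase Dck rose by 0.36 ± 0.08 (adjusted p = 0.00588, 0.072 without AAV-ctrl replicate 3, and 0.107 when scaled to the T cell genes). The 3 genes that fell were Tk2, Rrm2b and Dguok, of which Tk2 and Dguok are the mitochondrial kinases. Dguok fell by 0.29 ± 0.08 (adjusted p = 0.0144), but not with AAV-IL-27 replicate 1 (0.0519) or AAV-ctrl replicate 1 (0.138) left out or by DESeq2 (0.12).

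The enzymes that build the purine and pyrimidine rings changed by small amounts. Of 18 genes 10 rose and 3 fell, beside 21.3% and 17.7% of all genes tested, and the median log2 fold change was 0.20. The test against 1.5-fold was passed by 0 of the 18 and by 5.04% of all genes. The largest rises were those of Adssl1 (0.82 ± 0.18, adjusted p = 0.00696, and 0.0846 without AAV-ctrl replicate 1) and Adss (0.34 ± 0.06, adjusted p = 0.00159, and 0.144 when scaled to the T cell genes), which commit inosinate to AMP. Umps, which makes uridylate, followed (0.31 ± 0.09, adjusted p = 0.0185), but lost the call with AAV-IL-27 replicate 3 (0.0858) or AAV-ctrl replicate 1 (0.175) left out, by DESeq2 (0.0825), by limma (0.0719) or when scaled to the T cell genes (0.241). Impdh1, an enzyme of guanylate synthesis, fell (-0.35 ± 0.05, adjusted p = 8.75e-04), as did Dhodh, the mitochondrial step of pyrimidine synthesis (-0.46 ± 0.11, adjusted p = 0.0105), and Ctps2, which makes CTP (-0.25 ± 0.05, adjusted p = 0.00601). The falls of Dhodh and Ctps2 were lost when AAV-ctrl replicate 1 (0.0844 and 0.0609) or 3 (0.0864 and 0.0614) was left out and by DESeq2 (0.0865 and 0.0563).

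**Figure D5:**
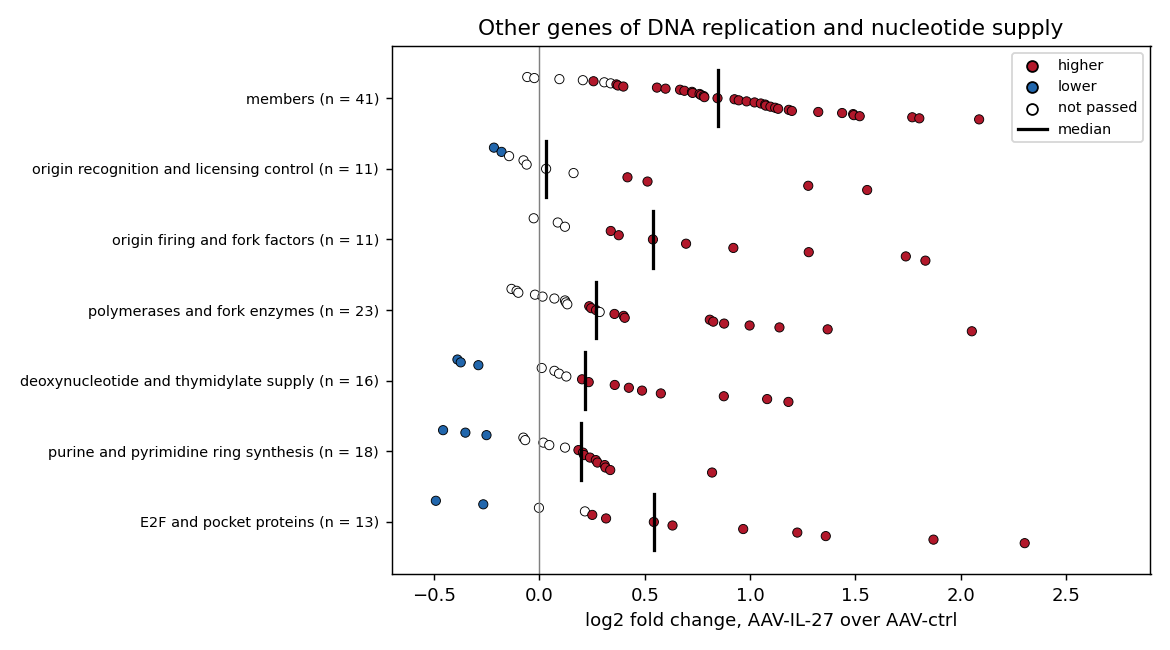
Log2 fold change of each gene of the 41 members and of the 6 other lists (points; red higher, blue lower, open not passed), with the median of each list as a bar. The members' median is 0.85, and the medians of the other lists run from 0.03 to 0.54.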

How the data were processed

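RNA sequencing of 4 libraries was analysed, 2 AAV-IL-27 and 2 AAV-ctrl. The labels name both poly(A) RNA and removal of ribosomal RNA. Tools named in the submitters' processing notes, with no role for each, are RSEM 1.2.12, HISAT2 2.0.4, DESeq2 1.4.5 and Bowtie2 2.2.5, and the build is GRCm38.p6. The authors deposited expected counts per gene, which need not be whole (12 members had a value more than 0.001 from a whole number), and were rounded here. A second deposited column per library was taken to be FPKM from its values, since the headers give no unit. Totals ran from 15742523 to 16182453 counts.

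Genes passing filterByExpr were tested with edgeR 4.0.16 (TMM, robust quasi-likelihood fit, no block, two-sided) in R 4.3.3, with Benjamini-Hochberg adjustment over 12887 genes and a threshold of 0.05, and glmTreat against 1.5-fold. A log2 fold change above 0 is higher in AAV-IL-27, and SE is its size over the square root of F. A self-test on simulated counts was passed, but it was judged only on the genes given the largest fold. It set no limit for smaller folds or for false calls. Alternatives were other scalings (one on the 17 T cell genes), DESeq2 1.42.0, limma 3.58.1 on log2(FPKM + 1), other filters, a replicate block and leaving out each library. Replicate libraries were farther apart than counting noise, with chi-square over degrees of freedom of 6.71 for AAV-IL-27 mice and 2.53 for controls. Per-sample columns that could not be mapped numbered 0.

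The members and lists were chosen with earlier results of these data known. Genes were named by a rule: all 41 members, from each other list the 3 largest rises and up to 3 largest falls that passed, and 16 paralogs or partner subunits. A result under this rule is not reported here. Genes overlapping a member were named after their values were seen. Coordinates and promoter windows come from RefSeq, and exon overlaps from GENCODE, on the same build.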

Additional observations from a re-analysis of the deposited data

How the results depend on the processing

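The number of risen members, 35, ran from 31 (libraries scaled to the T cell genes) to 36 over the alternatives listed in the methods, and members lower stayed at 0. The members' median log2 fold change, 0.85, was 0.795 with upper-quartile factors, 0.796 with library size alone, 0.724 when scaled to the T cell genes and 0.727 with limma on log2(FPKM + 1). The number above 1.5-fold ranged from 16 to 25 with 1 library left out, and was 17 when scaled to the T cell genes and 22 with upper-quartile factors or library size alone. Other pathway genes higher numbered 31, against 53, when scaled to the T cell genes. Changed genes in the whole table numbered 3243 by DESeq2, against 5023, and 2635 to 4886 with 1 library left out. Cdt1 turned to -0.025 when scaled to the T cell genes, and Pole4 to -0.035 with upper-quartile factors and with library size alone, -0.105 when scaled to the T cell genes and -0.061 with limma; neither passed there. The cause of these moves was not tested, beyond fewer libraries where one was left out. Replicate numbers were shared by the groups, but same-numbered deviations had r = -0.000736 over 12887 genes, so the 2 numbers are not shown to pair the mice. With the replicate block 35 members rose, 24 passed the test against 1.5-fold and 4971 genes changed. With 2 mice a group and lone libraries in the fits that leave 1 out, the spread is borrowed across genes and groups. Small changes such as those of Gins3, Gins4 and Rpa3 could not be settled with this number of mice.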
